A study of Mus musculus with 15 samples.

Results

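The genes of the STAT transcription factors and the Janus kinases (JAKs) were followed in MH-S cells, an SV40-transformed line of murine alveolar macrophages. The members were the rows of the count table whose Ensembl identifier carries the symbol *Jak1*, *Jak2*, *Tyk2*, *Stat2*, *Stat3*, *Stat4*, *Stat5a*, *Stat5b* or *Stat6*, that is 9 of 78317 identifiers. They were chosen by name and not by level, but with earlier results of these data known, as were the gene lists used below. The data are 15 RNA-seq libraries in 5 groups of 3 wells, all of this line and sampled after 24 h. No genetic change beyond the SV40 transformation is named for them. M0 cells received medium alone, M1 cells LPS at 1 µg/mL with IFN-γ at 20 ng/mL, and M2 cells IL-4 at 20 ng/mL. CaP cells received calcium phosphate microrods and SiO2 cells silica microrods, both at 0.1 mg/mL and with the same alginate, protamine and carboxymethyl chitosan coating. The microrods of the 3 wells of a group were prepared independently of each other. All wells were seeded from a single passage, and p-values therefore measure the spread between wells, which may be technical in part.

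Cytokine receptors of the JAK-STAT type have no kinase of their own. A JAK bound to the receptor tail phosphorylates it once the cytokine is bound, STAT proteins dock there and are phosphorylated in turn, and STAT dimers enter the nucleus and switch on target genes, among them the SOCS inhibitors that shut the pathway down again. IFN-γ acts through JAK1 and JAK2. Type I interferons act through TYK2 and JAK1 on a complex that holds STAT2, IL-6 and IL-10 act through STAT3, GM-CSF through JAK2 and STAT5, and IL-4 through STAT6, the route to alternative activation of macrophages. Activity in this pathway is set by phosphorylation, and the measurements here are of messenger RNA alone.

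The total count per library lay between 8459643 (M0 replicate 3) and 68750050 (M2 replicate 3). Levels are CPM, that is counts scaled to one common library size, corrected by the trimmed mean of M-values, and a gene was called at an adjusted p below 0.05 with an absolute log2 fold change above 0.5 in edgeR's quasi-likelihood test over 16654 genes. Macrophage genes were present in all libraries, with *Cd68* between 677 and 1322 CPM and *Csf1r* between 61.0 and 203 CPM. Genes that mark alveolar macrophages in the lung were low or absent. *Ear2* had no count, and *Siglecf* (0.478 CPM), *Chil3* (0.478 CPM), *Car4* (0.0860 CPM) and *Pparg* (0.658 CPM) were low at their highest. *Marco* reached 2.82 CPM and *Fabp4* 1.85 CPM, and *Itgax* lay between 1.57 and 4.93 CPM. Epithelial and fibroblast markers summed to 0.478 and 0.389 CPM at most. Lymphocyte markers summed to between 9.04 and 14.7 CPM in M1 and to between 0.463 and 1.08 CPM in M0, which rested on *Cd79b*, while 10 of the 12 genes of that list, *Cd3e* included, never passed 3 counts. Of 12 tested markers of alveolar macrophages, 4 were higher and 2 lower in M1 than in M0, beside 14.1% of all genes called. In M2 1 was higher and 1 lower, beside 4.13%. None were called in CaP or SiO2, beside 0.654% and 0.264%. *Adgre1* rose in M1 and M2 (61.8 ± 17.0 CPM in M0, 296 ± 29.6 CPM in M1 and 195 ± 50.8 CPM in M2), and *Lyz2*, the lysozyme gene, fell in M2 from 1847 ± 376 to 368 ± 61.3 CPM (-2.33 ± 0.18, adjusted p = 3.1e-06). The others that rose in M1 were *Marco* (0.147 ± 0.165 to 2.18 ± 0.682 CPM, adjusted p = 0.00107), *Fabp4* (0.291 ± 0.0516 to 1.41 ± 0.410 CPM, adjusted p = 0.00154) and *Fcgr1* (16.6 ± 4.05 to 43.3 ± 7.96 CPM, adjusted p = 5.5e-04). The 2 markers that fell in M1 had smaller log2 fold changes in size than the 4 that rose. They are not named, since at most 4 genes per list are. Mitochondrial genes took between 0.888% and 1.04% of counts in M1 and between 1.48% and 2.18% in M0, and the part of these shifts in the M1 results was not tested.

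Of the 9 members, 8 passed the filter on low counts. Per kilobase of the longest coding transcript, the mean level over all libraries was highest for *Stat6* (12.2 CPM per kb) and *Jak1* (11.5 CPM per kb). *Stat3* (6.76 CPM per kb), *Stat5a* (4.38 CPM per kb) and *Tyk2* (3.03 CPM per kb) followed, and *Stat5b* (1.65 CPM per kb), *Stat2* (0.765 CPM per kb) and *Jak2* (0.628 CPM per kb) were the lowest of those tested. The group means of *Stat6* (8.06 to 17.6 CPM per kb) overlapped with those of *Jak1* (10.1 to 14.3 CPM per kb), and those of *Stat2* (0.460 to 1.18 CPM per kb) with those of *Jak2* (0.299 to 1.17 CPM per kb). The transcript lengths come from another annotation than the counts, so this order is approximate.

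**Figure D1:**
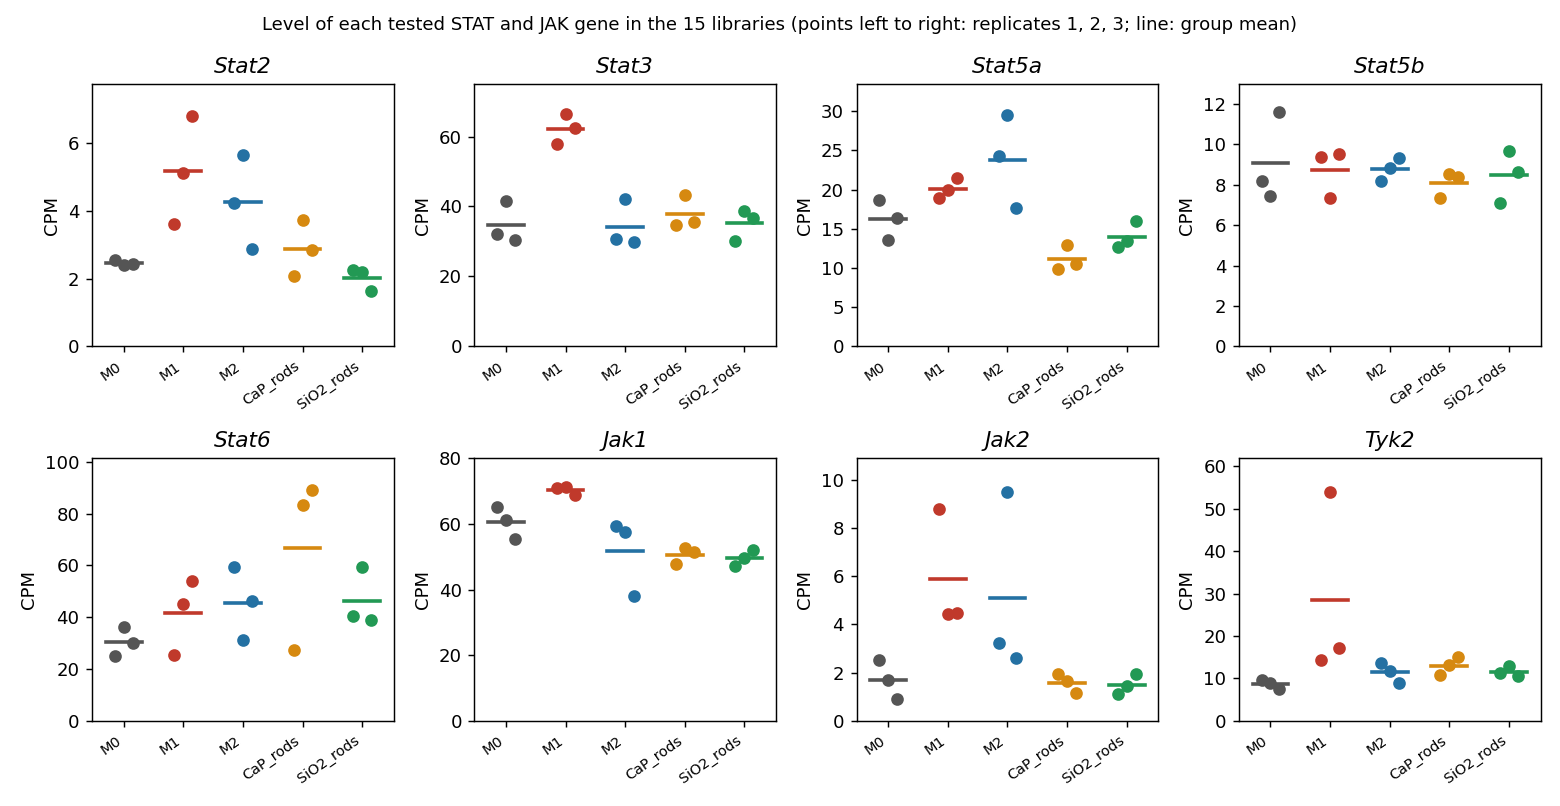
Level in CPM (vertical axes, linear, from 0) of the 8 tested members in the 15 libraries, by group, with a point per library and a line at the group mean. *Stat3* sits between 57.9 and 66.4 CPM in M1 and at 43.2 CPM or below in all other libraries, while *Tyk2* in M1 and *Stat6* in CaP each have 1 library far from the other two.

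LPS with IFN-γ raised both kinases and STATs. In M1 against M0, 4 of the 8 tested members rose and none fell, namely *Tyk2*, *Jak2*, *Stat2* and *Stat3*, where 14.1% of all genes tested were called, 9.70% higher and 4.37% lower. The libraries of the groups did not overlap for 6 members, and 32.2% of all genes tested showed the same. The median log2 fold change of the members was 0.65, beside -0.01 for all genes. In bulk RNA, more cells that express a gene and more RNA per cell cannot be told apart. Same-numbered M0 and M1 libraries deviated from their group means with correlations of 0.29, 0.27 and 0.21. The labels tie the replicate numbers to no batch. With the replicate number in the model of all libraries *Stat2* was lost (adjusted p = 0.0549) and 3 calls remained. In a model of the 6 M0 and M1 libraries with that term 2 members were called, *Stat3* and *Jak2*. There *Tyk2* was at an adjusted p of 0.0638 and *Stat2* at 0.0724.

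*Tyk2* (ENSMUSG00000032175), the kinase of type I interferon and IL-12 family receptors, stood at 9.64, 8.91 and 7.41 CPM in the M0 libraries and at 14.4, 54.0 and 17.1 CPM in the M1 libraries. All M1 libraries lay above all M0 libraries, and M1 replicate 2, with 790 counts, lay far above the other two. The fitted log2 fold change was 1.71 ± 0.40 (SE, 3.28-fold, adjusted p = 0.0116). Without M1 replicate 2 it was 0.84 ± 0.24 (adjusted p = 0.0459). The call was lost in a model of the 6 M0 and M1 libraries alone (adjusted p = 0.0691). In M2 *Tyk2* was 11.4 ± 2.39 CPM (SD, n = 3), in CaP 13.0 ± 2.18 CPM and in SiO2 11.6 ± 1.25 CPM. No pair among these 3 groups and M0 was called, and M1 exceeded M2 by 1.35 ± 0.40 on the log2 scale (adjusted p = 0.0334). That difference was lost without M1 replicate 2 (0.48, adjusted p = 0.244) and without M2 replicate 1 (adjusted p = 0.0561), 2 (0.0543) or 3 (0.140), and with the replicate number in the model (0.0541).

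*Jak2* (ENSMUSG00000024789), the kinase of the IFN-γ, GM-CSF and IL-12 receptors, was the scarcest of the tested members, with between 8 and 181 counts per library. It stood at 2.50, 1.69 and 0.927 CPM in M0 and at 8.77, 4.44 and 4.47 CPM in M1, and rose by 1.63 ± 0.49 on the log2 scale (3.10-fold, adjusted p = 0.0418). The M1 and M0 libraries did not overlap. The call was lost when any of the 6 libraries was left out, with log2 fold changes from 1.23 to 2.06 and adjusted p-values from 0.0582 (M0 replicate 1) over 0.0595 (M1 replicate 2), 0.0610 (M1 replicate 3), 0.0965 (M0 replicate 3) and 0.107 (M0 replicate 2) to 0.158 (M1 replicate 1). In M2 the values were 3.21, 9.48 and 2.59 CPM, all above M0, with a log2 difference of 1.23 ± 0.50 that did not pass the adjustment (adjusted p = 0.217). M1 and M2 overlapped, and their difference of 0.40 had a 95% interval from -0.61 to 1.40.

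*Jak1* (ENSMUSG00000028530), the kinase shared by the interferon, IL-4 and IL-6 receptors, was level across the groups by comparison. Its M1 libraries (71.0, 71.1 and 68.7 CPM) all lay above its M0 libraries (65.3, 61.3 and 55.4 CPM), but the difference was 0.21 ± 0.16 (95% interval -0.14 to 0.57, adjusted p = 0.430). M2 was lower than M1 without overlap (59.2, 57.6 and 37.9 CPM), a log2 difference of 0.45 between M1 and M2 with an adjusted p of 0.0824. In CaP *Jak1* was 50.6 ± 2.55 CPM and in SiO2 49.6 ± 2.38 CPM, and neither group overlapped with M0 or M1. Against M0 the differences were -0.26 ± 0.16 and -0.29 ± 0.16, with adjusted p-values of 0.453 and 0.702.

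*Stat2* (ENSMUSG00000040033), the partner of IRF9 in the type I interferon complex, rose in M1 by 1.05 ± 0.32 on the log2 scale (2.08-fold, adjusted p = 0.0406). Its M0 libraries were close together at 2.56, 2.41 and 2.43 CPM, and its M1 libraries were at 3.61, 5.13 and 6.80 CPM, on 21 to 97 counts per library. Without overlap, M2 was also above M0 (4.23, 5.66 and 2.89 CPM), with a difference of 0.68 ± 0.32 that was not called (adjusted p = 0.295), and the interval of the difference between M1 and M2 ran from -0.28 to 1.04. The M1 call held without M1 replicate 1 (adjusted p = 0.0270) and was lost without M0 replicate 1 (0.113), 2 (0.0983) or 3 (0.0799) or M1 replicate 2 (0.104) or 3 (0.173), and in a test without a filter on low counts (0.0591). The promoter of *Stat2* is shown because it was the sole promoter of a called member with a match to a sequence that STAT2-containing complexes are known to bind, the core of the interferon-stimulated response element (GAAA, any 2 bases, GAAA, or TTTC, any 2 bases, TTTC on the other strand). The sequence covers the 250 bases before the RefSeq start at chr10:128270248-128270497 (GRCm38.p6, plus strand), with the match, from 222 to 213 bases before the start, in capitals. It is a match of letters and not a site known to be used in these cells.
*Stat2* promoter: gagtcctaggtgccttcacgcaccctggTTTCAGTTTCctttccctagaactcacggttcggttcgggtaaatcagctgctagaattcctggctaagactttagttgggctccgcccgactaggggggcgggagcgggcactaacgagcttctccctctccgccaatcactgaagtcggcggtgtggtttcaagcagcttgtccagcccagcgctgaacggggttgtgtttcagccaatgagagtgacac

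*Stat3* (ENSMUSG00000004040), the mediator of IL-6 and IL-10, rose in M1. It stood at 32.1, 41.5 and 30.3 CPM in M0 and at 57.9, 66.4 and 62.4 CPM in M1, on 262 to 1217 counts. The M1 libraries lay above every other library of the series. The log2 fold change was 0.85 ± 0.19 (1.80-fold, adjusted p = 0.00756), it stayed between 0.76 and 0.99 with any library left out, and the call was kept in 15 of 15 alternatives. M2 (30.6, 42.1 and 29.7 CPM), CaP (34.8, 43.2 and 35.7 CPM) and SiO2 (30.1, 38.8 and 36.8 CPM) overlapped with M0 and with each other. In all 5 groups, M1 included, the replicate with the number 2 was the highest. M1 exceeded M2 by 0.88 ± 0.19 (adjusted p = 0.00510), and this call was lost in a model of the 6 libraries alone (adjusted p = 0.0643). The *Stat3* promoter (chr11:100939541-100939790, GRCm38.p6, minus strand, 250 bases before the start) held neither the element above nor the gamma-activated site TTCNNNGAA (N is any base), which STAT dimers are known to bind and which reads the same on both strands, and it is shown without capitals for comparison.
*Stat3* promoter: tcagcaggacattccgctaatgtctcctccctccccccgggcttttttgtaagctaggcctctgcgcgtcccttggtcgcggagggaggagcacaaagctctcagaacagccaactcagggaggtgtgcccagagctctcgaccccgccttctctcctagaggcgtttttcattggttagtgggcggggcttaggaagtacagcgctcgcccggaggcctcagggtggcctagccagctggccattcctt

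Over the 12 RefSeq promoters of the 9 members, the interferon-stimulated core was found in 2 and the gamma-activated site in 0, and among all 32851 mouse promoters of this length 2.98% and 7.02% held them. The second promoter with the interferon-stimulated core belonged to *Stat4*, a gene without a single count. Nothing particular to the members is read from these counts.

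*Stat4* (ENSMUSG00000062939), which carries IL-12 signals mainly in lymphocytes, had 0 counts in all 15 libraries. A count of 0 allows up to 0.355 CPM in the smallest library, 0.0436 CPM in the largest and 0.00850 CPM over the 352964106 counts together, counting error only. Its second promoter is shown as the counterpart of *Stat2*, with the match from 97 to 88 bases before the start in capitals (chr1:52007990-52008239, GRCm38.p6, plus strand).
*Stat4* promoter: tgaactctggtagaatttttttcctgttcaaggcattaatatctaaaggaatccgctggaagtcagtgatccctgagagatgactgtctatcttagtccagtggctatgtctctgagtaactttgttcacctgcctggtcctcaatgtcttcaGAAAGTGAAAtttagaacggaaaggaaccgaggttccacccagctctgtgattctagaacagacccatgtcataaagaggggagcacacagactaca

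*Stat5a* (ENSMUSG00000004043) and *Stat5b* (ENSMUSG00000020919), the STATs of GM-CSF and other growth factors, are a pair of closely related genes. *Stat5a* had its highest mean in M2 (24.3, 29.5 and 17.7 CPM), followed by M1 (18.9, 19.9 and 21.5 CPM), M0 (18.7, 13.5 and 16.3 CPM), SiO2 (12.6, 13.4 and 15.9 CPM) and CaP (9.89, 13.0 and 10.5 CPM). Neighbours in this order overlapped, apart from M1 and M0. The difference between M1 and M0 of 0.31 ± 0.21 was not called (95% interval -0.14 to 0.75, adjusted p = 0.368). The M2 difference from M0 was 0.53 ± 0.21 (adjusted p = 0.195), and M1 and M2 overlapped. *Stat5b* lay between 7.10 and 11.6 CPM in all 15 libraries, its group means ran from 8.08 ± 0.663 CPM in CaP to 9.06 ± 2.22 CPM in M0, and each of its 10 pairwise intervals covered 0, the one for M1 against M0 running from -0.48 to 0.41. The genes lie next to each other on the genome and share sequence. Of the 75-base windows of *Stat5a* coding transcripts 9.27% also occur in *Stat5b*, and 7.08% the other way round, and the share of reads that could not be assigned to one of them was not measured. No other pair of members shared a window.

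*Stat6* (ENSMUSG00000002147), the mediator of IL-4, was not called in M2, the group that received IL-4, with 59.2, 31.2 and 46.2 CPM against 25.1, 36.2 and 29.9 CPM in M0 (log2 difference 0.59 ± 0.40, 95% interval -0.27 to 1.45, adjusted p = 0.502). In M1 it was at 25.3, 45.1 and 53.9 CPM (difference 0.45 ± 0.40, adjusted p = 0.491). In every group it spread more than *Stat3* or *Jak1* did as a share of the mean, with a coefficient of variation from 18.3% in M0 to 51.2% in CaP. Its level went with the base composition of the library. A GC index was taken as the median deviation of the tenth of genes richest in G and C minus that of the tenth poorest, and *Stat6* correlated with it at a Pearson r of 0.81 over 15 libraries, and at 0.78 after subtracting group means. Depth and amplification also differ between these libraries, and the index is measured on them, so its part in the *Stat6* values was not tested. The *Stat6* transcript is 53.7% G and C. *Tyk2*, at 57.0%, correlated with the index at 0.26, while *Jak2*, at 44.3%, correlated at -0.27 over all libraries and at -0.76 within groups.

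**Figure D2:**
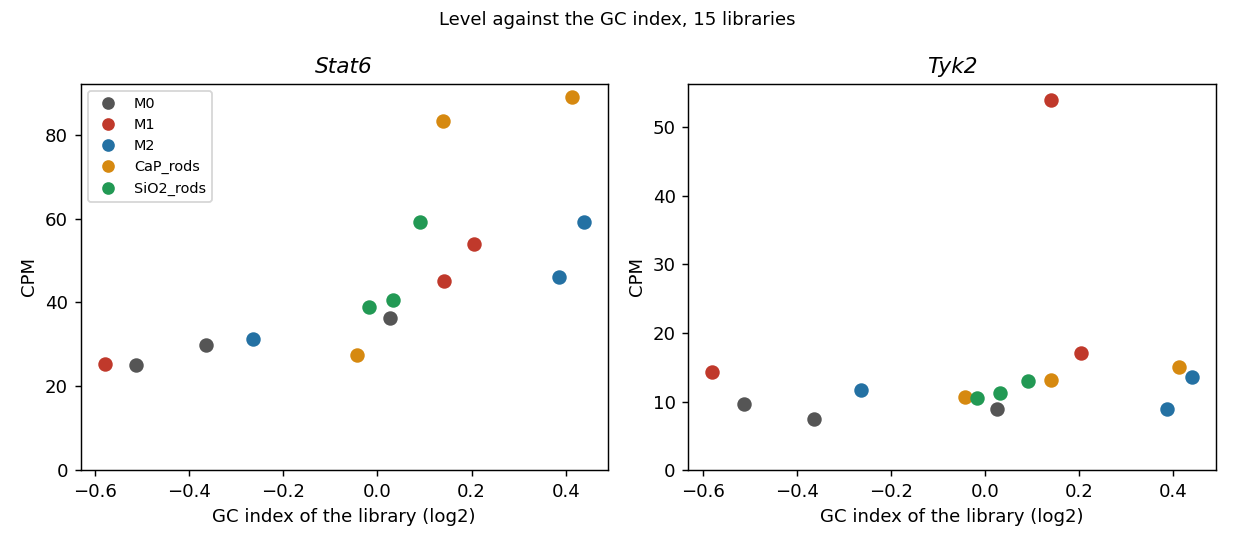
Level in CPM (vertical axes, from 0) of *Stat6* and *Tyk2* against the GC index of the library (log2), with a point per library coloured by group. *Stat6* is at 25.3 CPM at the lowest index (-0.58), at 59.2 CPM at the highest (0.44) and at its own highest, 89.0 CPM, at 0.41, while the *Tyk2* value of 54.0 CPM stands alone at an index of 0.14.

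IL-4 moved no member past the threshold. In M2 against M0, 0 of 8 tested members were called with edgeR and 0 with DESeq2, where 4.13% of all genes tested were called (2.00% higher and 2.13% lower), and 2 members, *Stat5a* and *Jak2*, had an unadjusted p below 0.05. The libraries of *Stat2* and *Jak2* did not overlap with M0, which 15.2% of all genes showed. In a test without a filter on low counts *Jak2* was called (1.34, adjusted p = 0.0226). In M1 against M2, 2 members were called, both higher in M1 (*Stat3* and *Tyk2*), where 16.1% of genes were called, 10.6% higher and 5.46% lower. The libraries did not overlap for 3 of 8 members, beside 29.4% of all genes.

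**Figure D3:**
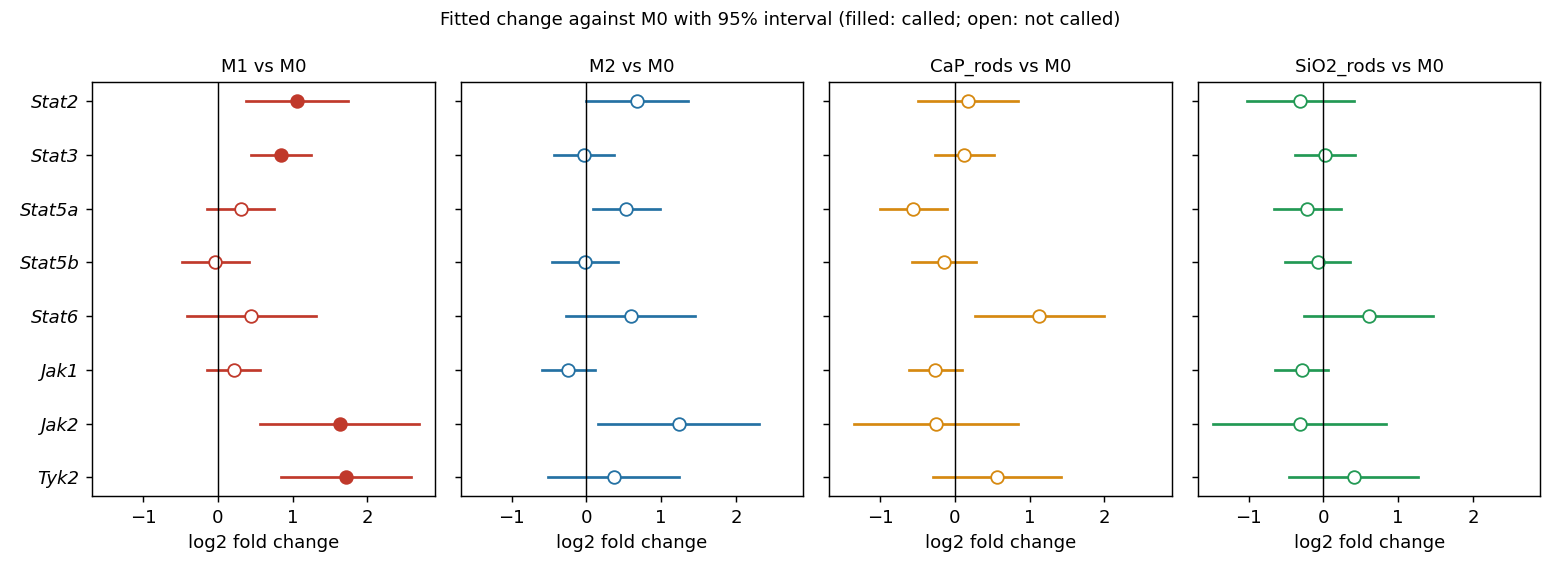
Fitted log2 fold change against M0 (horizontal axis) with its 95% interval for each tested member in 4 comparisons, filled where called. The M1 panel holds the 4 filled points, from 0.85 for *Stat3* to 1.71 for *Tyk2*, and the other 3 panels hold none. The 4 comparisons share the M0 libraries.

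The microrods were added to ask how far either material activates the cells. Neither moved a STAT or JAK gene past the threshold. In CaP against M0, 0 of 8 members were called with edgeR and 0 with DESeq2 where 0.654% of all genes were called (0.426% higher and 0.228% lower). An unadjusted p below 0.05 was found for 2 members, and the libraries did not overlap for 3 of 8 (*Stat5a*, *Jak1* and *Tyk2*), beside 17.4% of all genes. *Stat5a*, lower in CaP without overlap, differed by -0.56 ± 0.21 (adjusted p = 0.231). *Stat6* stood at 27.4, 83.2 and 89.0 CPM in CaP and differed by 1.13 ± 0.40 (2.19-fold, adjusted p = 0.211). CaP replicate 1 was inside the M0 range and replicates 2 and 3 were the highest of the series, and the GC index of these 3 libraries was -0.04, 0.14 and 0.41. Without CaP replicate 1 the *Stat6* difference was 1.49 ± 0.32 (adjusted p = 0.0508), without CaP replicate 3 it was 0.83 (adjusted p = 0.654), and without a filter on low counts it was called (1.14, adjusted p = 0.00316).

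In SiO2 against M0, 0 of 8 members were called with edgeR and 0 with DESeq2 where 0.264% of all genes were called (0.222% higher and 0.0420% lower), and none had an unadjusted p below 0.05. The libraries did not overlap for *Stat2* and *Jak1*, lower in SiO2, and for *Stat6* and *Tyk2*, higher in SiO2, that is for 4 of 8 members beside 18.0% of all genes. The differences were -0.31 ± 0.33 for *Stat2* (2.25, 2.19 and 1.62 CPM in SiO2), 0.60 ± 0.40 for *Stat6* (40.5, 59.2 and 38.9 CPM) and 0.41 ± 0.40 for *Tyk2* (11.3, 13.0 and 10.6 CPM). The intervals of the *Stat3* difference from M0 ran from -0.37 to 0.42 in SiO2 and from -0.27 to 0.52 in CaP. The M1 estimate of 0.85 lay outside both, but its own interval, from 0.45 to 1.24, overlapped with that of CaP. For *Jak2* the intervals ran from -1.47 to 0.84 and from -1.35 to 0.84, and did not reach the M1 estimate of 1.63. The M1 interval, from 0.57 to 2.69, overlapped with both.

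Between the materials no member was called. In CaP against SiO2, 0 of 8 members were called with edgeR and 0 with DESeq2 where 0.0180% of all genes were called, all of them higher. For none was the unadjusted p below 0.05, and the libraries overlapped for all 8 members, while 8.10% of all genes did not overlap. The largest differences were those of *Stat6* (0.53 ± 0.39, 95% interval -0.32 to 1.37) and *Stat2* (0.48 ± 0.32, -0.20 to 1.16). For *Jak1* and *Stat3* the intervals were narrower, from -0.33 to 0.38 and from -0.29 to 0.50.

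Several members were lower with microrods than in M1. In CaP against M1, *Jak2* was lower by 1.88 ± 0.48 (log2 fold change -1.88, adjusted p = 0.0186), *Stat5a* by 0.86 ± 0.21 (-0.86, adjusted p = 0.0142) and *Stat3* by 0.72 ± 0.18 (-0.72, adjusted p = 0.0189), that is 3 of 8 members lower where 12.7% of all genes were called, 9.11% lower and 3.54% higher. The libraries did not overlap for 4 members, beside 37.3% of all genes. All 3 calls were lost without CaP replicate 3 (adjusted p = 0.0866 for *Jak2*, 0.0583 for *Stat5a* and 0.0759 for *Stat3*). *Stat3* was also lost without CaP replicate 1 (0.0502) or M1 replicate 2 (0.0728) or 3 (0.0569), *Stat5a* without M1 replicate 3 (0.0552) and *Jak2* without M1 replicate 1 (0.111). Without a filter on low counts *Stat3* (0.109) and *Stat5a* (0.0601) were lost. *Tyk2* missed the threshold (-1.15 ± 0.39, adjusted p = 0.0704) and was called without M1 replicate 1 (0.0225) or 3 (0.0444). It was also called with DESeq2 and in the edgeR test without a filter on low counts. *Stat6* was called higher in CaP without CaP replicate 1 (1.05, adjusted p = 0.0467).

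In SiO2 against M1, 4 of 8 members were lower where 10.5% of all genes were called, 7.67% lower and 2.79% higher. The libraries did not overlap for 6 members, beside 33.5% of all genes. *Jak2* differed by -1.95 ± 0.51 (adjusted p = 0.0239), *Stat2* by -1.36 ± 0.32 (adjusted p = 0.0139), *Tyk2* by -1.31 ± 0.39 (adjusted p = 0.0499) and *Stat3* by -0.82 ± 0.18 (adjusted p = 0.0103). Without M1 replicate 2 the *Tyk2* difference was -0.44 (adjusted p = 0.380), and it was also lost without SiO2 replicate 1 (0.150), 2 (0.0989) or 3 (0.163), at 10 counts or more in every library (0.0541), under the replicate block (0.0731) and with the legacy model (0.0563). *Jak2* was lost without M1 replicate 1 (0.119) or SiO2 replicate 1 (0.106), 2 (0.0695) or 3 (0.0528), *Stat2* without M1 replicate 3 (0.0719) or SiO2 replicate 3 (0.0775), and *Stat3* without SiO2 replicate 1 (0.0655) or without a filter on low counts (0.0613). These comparisons share the M1 libraries with each other and with M1 against M0.

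In CaP against M2, *Stat5a* was lower by 1.09 ± 0.21 (log2 fold change -1.09, 2.13-fold, adjusted p = 0.00640), 1 of 8 members where 4.46% of all genes were called, 1.99% lower and 2.46% higher. The libraries did not overlap for 2 members, beside 12.3% of all genes. The call was kept with any library left out and lost in a model of the 6 libraries alone (adjusted p = 0.133). In SiO2 against M2, 0 of 8 members were called with edgeR and 2 with DESeq2, *Stat5a* and *Jak2*, where 3.65% of all genes were called with edgeR, 2.09% higher and 1.56% lower, and 3 had an unadjusted p below 0.05. The libraries did not overlap for 3 members, beside 15.5% of all genes. The edgeR difference of *Stat5a* was -0.75 ± 0.21 (adjusted p = 0.0728), and without M2 replicate 3 it was called (-0.93, adjusted p = 0.0270).

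**Figure D4:**
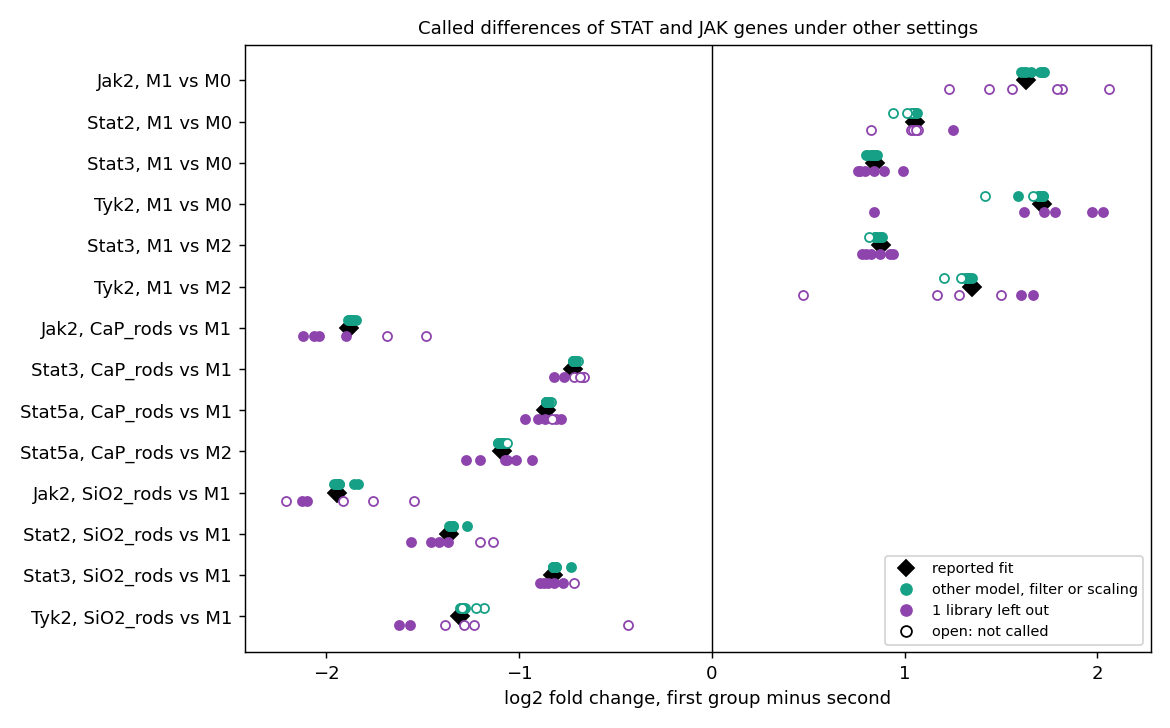
Log2 fold change (horizontal axis, first group minus second) of each called member and comparison in the reported fit, under other models, filters and scalings, and with 1 library left out, filled where called. All points keep the sign of the reported value. *Stat3* in M1 against M0 is filled throughout (0.76 to 0.99 with a library left out), and *Tyk2* has its smallest absolute values without M1 replicate 2 (0.84 against M0).

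Upstream of the kinases, cytokine receptor genes were called in M1 about as often as all genes were. In M1 against M0, 3 of 21 tested receptor genes fell and none rose. Of all genes 14.1% were called, 4.37% lower and 9.70% higher. Nothing particular to the receptors is read from that count. In M2 against M0 1 rose and 2 fell, beside 4.13% of all genes called. *Ifngr1*, the ligand-binding chain of the IFN-γ receptor, fell from 113.7 ± 12.4 to 55.7 ± 2.26 CPM in M1 (-1.03 ± 0.19, adjusted p = 0.00197), while *Ifngr2*, its signalling chain that binds JAK2, was at 119 ± 18.1 and 162 ± 35.8 CPM (0.45 ± 0.22, adjusted p = 0.207). *Csf2rb2*, a beta chain of the IL-3 receptor, fell by 1.16 in M1 (-1.16 ± 0.25, adjusted p = 0.00686). *Lifr*, the receptor of leukaemia inhibitory factor, was at 1.81 ± 1.08 CPM in M0, fell to 0.0552 ± 0.0499 CPM in M1 (adjusted p = 0.00113) and rose to 12.8 ± 3.93 CPM in M2 (adjusted p = 2.13e-04).

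Of the IL-4 receptor chains, *Il13ra1* fell in M2 from 17.5 ± 3.70 to 6.58 ± 0.820 CPM (-1.42 ± 0.20, adjusted p = 0.00106). *Il4ra* was at 4.41 ± 0.767 CPM in M0 and 3.66 ± 2.03 CPM in M2 (-0.13 ± 0.41, adjusted p = 0.909), and *Il2rg*, the common gamma chain of the IL-4 and related receptors, at 283 ± 49.4 and 301 ± 155 CPM (0.09 ± 0.28, adjusted p = 0.913). *Il21r* also fell in M2 (-2.19 ± 0.51, adjusted p = 0.0284). None of the 21 receptor genes was called in CaP or SiO2 against M0, beside 0.654% and 0.264% of all genes.

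Most of the cytokine genes tested rose in M1. Of 10 tested ligand genes, 8 rose and 1 fell in M1 against M0, beside 14.1% of all genes called. None were called in M2, CaP or SiO2, beside 4.13%, 0.654% and 0.264% of all genes. The list holds *Il6*, which the authors used as an M1 marker in these libraries, so its rise was known in advance. *Il6*, whose receptor signals through STAT3, was at 51.4 ± 5.12 CPM in M1 and 0.0176 ± 0.0304 CPM in M0 (adjusted p = 4.10e-10), and *Il10*, the anti-inflammatory cytokine of the same STAT, at 2.39 ± 0.809 and 0.0305 ± 0.0327 CPM (adjusted p = 7.61e-06). *Csf3*, the granulocyte growth factor, was at 235 ± 52.9 and 0.0656 ± 0.0659 CPM (adjusted p = 1.53e-09) and *Lif* at 5.56 ± 0.585 and 0.0480 ± 0.0422 CPM (adjusted p = 1.40e-07). The M0 values of these genes rest on a few counts, so no fold is given. The ligand gene that fell was *Il15* (-1.30 ± 0.23, adjusted p = 0.00206), named with *Sh2b3* and *Irf1* after their values were seen to account for the single genes that fell in their lists.

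**Figure D5:**
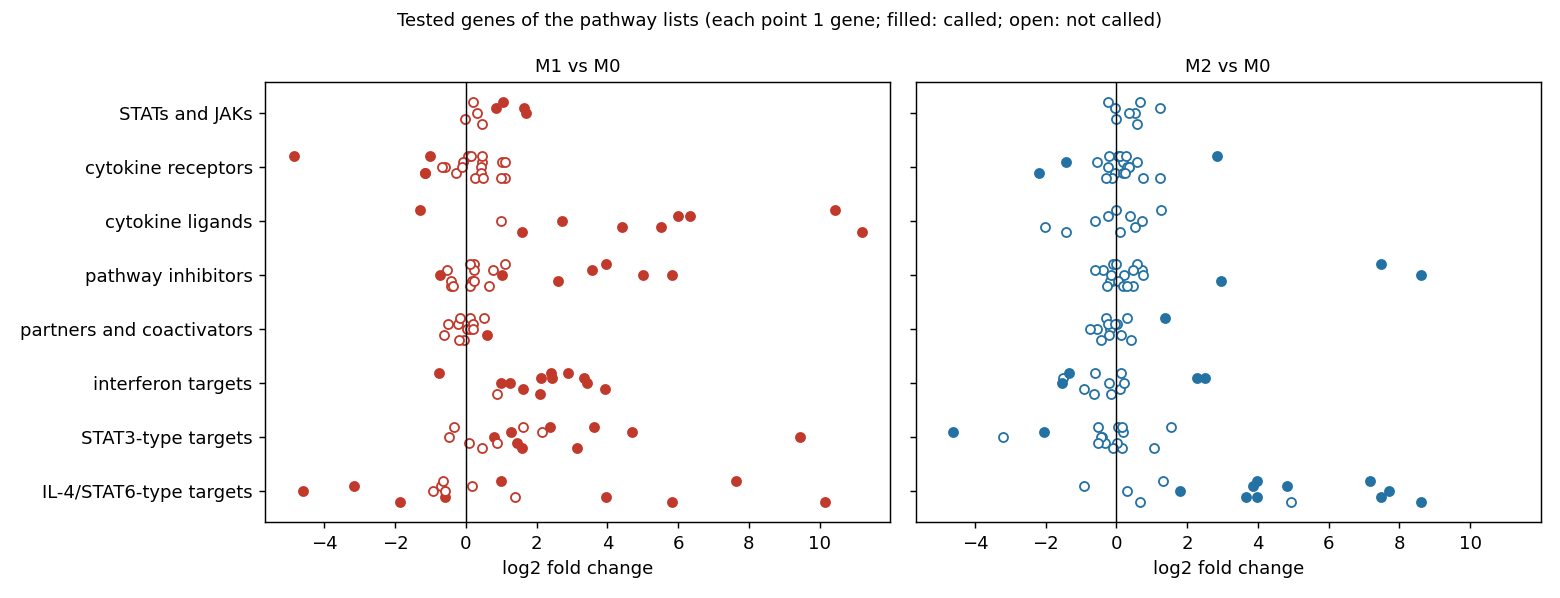
Log2 fold change (horizontal axis) in M1 and M2 against M0 of the tested genes of 7 pathway lists and of the members, with a point per gene, filled where called. The 8 STAT and JAK genes stay between -0.24 and 1.71. Some points far to the right, such as those of *Csf3*, *Il6* and *Cish*, belong to genes near 0 counts in M0, whose fitted position depends on the prior count and is not a measured fold. Others, such as *Arg1* (7.16) and *Mgl2* (7.69) in M2, belong to genes with 11.0 and 2.26 CPM in M0.

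Of the 20 inhibitors of the pathway, 6 rose and 1 fell in M1, beside 14.1% of all genes called. In M2 3 rose, beside 4.13%. None were called in CaP or SiO2, beside 0.654% and 0.264%. *Socs3*, the inhibitor of STAT3 signals, rose from 2.12 ± 0.201 to 66.7 ± 15.97 CPM in M1 (4.99 ± 0.41, adjusted p = 2.07e-06) and was at 3.28 ± 1.76 CPM in M2 (adjusted p = 0.388). *Socs1*, the inhibitor of interferon and IL-4 signals, rose from 0.451 ± 0.0766 to 6.78 ± 4.602 CPM in M1 (adjusted p = 0.0152) and to 75.5 ± 63.1 CPM in M2 (adjusted p = 4.04e-04). *Cish*, a target of STAT5 and STAT6, was at 0.0656 ± 0.0659 CPM in M0 and rose to 5.74 ± 2.48 CPM in M1 (adjusted p = 3.17e-06) and 39.4 ± 8.55 CPM in M2 (adjusted p = 3.08e-08). *Sh2b3*, an adaptor that restrains JAK2, was the inhibitor that fell in M1 (-0.74 ± 0.14, adjusted p = 0.00296). *Socs2* rose in M1 (3.56 ± 0.57, adjusted p = 5.91e-04), and *Usp18*, which restrains the type I interferon receptor, rose in M2 (2.95 ± 0.26, adjusted p = 1.32e-05).

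Of 13 partners and coactivators, 1 rose in M1 (*Stam2*, an adaptor of JAK2, 0.60 ± 0.18, adjusted p = 0.0389) and 1 in M2 (*Sh2b2*, a JAK-binding adaptor, 1.37 ± 0.26, adjusted p = 0.00862). Beside these counts, 14.1% of all genes were called in M1 and 4.13% in M2, so the list did not stand out in M1. *Irf9*, the partner of STAT2, was at 14.7 ± 3.29 CPM in M0 and 20.7 ± 1.73 CPM in M1 (0.51 ± 0.23, adjusted p = 0.159). It is named because it forms the complex with STAT2, outside the rule for named genes.

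Downstream, 3 lists of target genes were followed. Against M0, 14.1% of all genes were called in M1, 4.13% in M2, 0.654% in CaP and 0.264% in SiO2. Of 13 tested interferon targets, 11 rose and 1 fell in M1 (median log2 fold change 2.13, beside -0.01 for all genes), 2 rose and 2 fell in M2 (median -0.21, beside 0.07), none were called in CaP (median 0.19, beside 0.06) and 1 rose in SiO2. In SiO2 the fitted difference from M0 was above 0 for 11 of the 13, with a median of 0.70 beside -0.02 for all genes, and in CaP against SiO2 it was below 0 for all 13, with a median of -0.40 beside 0.03 and no gene called. *Gbp2*, a guanylate-binding protein, rose to 3.22 ± 0.496 CPM from 0.166 ± 0.144 CPM in M1, *Isg15* to 9.55 ± 2.49 from 1.02 ± 0.626 CPM, *Cd274*, which encodes the checkpoint ligand PD-L1, to 11.5 ± 1.42 from 1.31 ± 0.677 CPM and *Cxcl10* to 15.8 ± 2.43 from 2.30 ± 0.821 CPM, all with adjusted p-values of 2.28e-05 or below. The target that fell in M1 was *Irf1*, a transcription factor of the interferon response (-0.77 ± 0.21, adjusted p = 0.0290). *Cd274* rose in M2 as well (2.29 ± 0.29, adjusted p = 4.71e-04), as did *Irf7* (2.51 ± 0.40, adjusted p = 0.00264), whereas *Cxcl10* (-1.33 ± 0.35, adjusted p = 0.0493) and *Oasl2* (-1.53 ± 0.30, adjusted p = 0.00865) fell. The call in SiO2 was *Ifit3* (0.512 ± 0.187 to 1.97 ± 0.390 CPM, 1.88 ± 0.33, adjusted p = 0.0315).

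Of 16 tested STAT3-type targets, 9 rose and none fell in M1 (median 1.51), beside 14.1% of all genes called. In M2 none rose and 2 fell (median -0.22), beside 4.13%. The share of all genes called was 0.654% in CaP and 0.264% in SiO2. *Saa3*, an acute-phase protein gene, rose from 28.2 ± 7.06 to 735.5 ± 120 CPM in M1 (4.71 ± 0.26, adjusted p = 4.32e-08) and fell to 1.14 ± 0.222 CPM in M2 (-4.62 ± 0.29, adjusted p = 6.14e-07). *Lcn2* was at 104 ± 18.8 CPM in M1 and 0.118 ± 0.104 CPM in M0 (adjusted p = 2.36e-08), and *Myc* rose from 2.59 ± 0.249 to 22.8 ± 5.13 CPM (adjusted p = 3.03e-05). *Fos* fell in M2 (-2.04 ± 0.24, adjusted p = 1.76e-04). *Il1rn*, which encodes the IL-1 receptor antagonist, was the sole gene of the list called with the microrods, at 12.8 ± 2.29 CPM in M0, 67.0 ± 20.8 CPM in CaP (2.41 ± 0.23, adjusted p = 1.42e-04) and 39.3 ± 0.757 CPM in SiO2 (1.64 ± 0.22, adjusted p = 0.00545), beside 155 ± 1.09 CPM in M1.

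Of 15 tested IL-4/STAT6-type targets, 10 rose and none fell in M2, beside 4.13% of all genes called. In M1 5 rose and 4 fell (median -0.58), beside 14.1%. The share of all genes called was 0.654% in CaP and 0.264% in SiO2. The list holds *Arg1*, *Clec10a* and *Ccl24*, which the authors used as M2 markers in these libraries, so their rise in M2 was known in advance. *Arg1*, arginase 1, rose from 11.0 ± 3.29 to 1550 ± 171 CPM in M2 (7.16 ± 0.29, adjusted p = 6.91e-09) and *Mgl2*, a lectin, from 2.26 ± 0.929 to 489 ± 82.7 CPM (7.69 ± 0.34, adjusted p = 1.21e-08), and *Cish* and *Socs1* (above) belong to this list too. In M1 the chemokine genes *Ccl22* (0.230 ± 0.0968 to 40.8 ± 9.37 CPM, adjusted p = 1.53e-09) and *Ccl17* (no count in M0, 5.97 ± 0.164 CPM in M1, adjusted p = 4.20e-07) rose and the lectin gene *Cd209a* fell (-4.61 ± 0.48, adjusted p = 2.15e-05). In CaP 1 gene of the list fell, *Mrc1*, the mannose receptor (1.85 ± 0.591 to 0.505 ± 0.191 CPM, -2.02 ± 0.36, adjusted p = 0.0231), and in SiO2 none were called.

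The members did not follow a shared pattern over the libraries. Pearson correlations of log2 CPM between pairs of members over 15 libraries ran from -0.32 (*Stat5b* and *Tyk2*) to 0.76 (*Stat5a* and *Jak2*), and *Stat3* correlated at 0.73 with *Tyk2* and at 0.70 with *Jak1*, and at 0.29 and 0.44 within groups. Among 9890 other genes (9891 for *Stat2* and *Jak2*) with a mean of at least 5 CPM, the 3 genes most like each member were *Wdr66*, *Alg14* and *Slc15a3* for *Stat3* (r from 0.94 to 0.92), *Vamp3*, *Ap2b1* and *Flii* for *Stat2* (0.89 to 0.85), *Rin3*, *Idh1* and *Trio* for *Stat5a* (0.91 to 0.88) and *Ipo8*, *Dcp1a* and *Zeb2* for *Stat5b* (0.86 to 0.75). For *Stat6* they were *Slc38a10*, *Hgs* and *S1pr2* (0.97 to 0.96). For the kinases they were *Cntrl*, *Trmt10a* and *Abcc1* with *Jak1* (0.89 to 0.87), *Samsn1*, *Olfm1* and *Gm14005* with *Jak2* (0.94 to 0.90), and *Ubr1*, *Timeless* and *Bbs9* with *Tyk2* (0.88 to 0.81). The libraries share depth, amplification and base composition, and each gene was picked as the best of all candidates, so these values are descriptions.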

How the data were processed

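RNA of 15 MH-S wells was made into Smart-seq2 libraries and sequenced as paired-end reads of 75 bases. The authors aligned and quantified the reads with the nf-core/rnaseq pipeline (STAR and Salmon, Ensembl annotation, GRCm39 per the labels) and deposited whole-number counts per Ensembl gene, neither normalized nor filtered. They may be Salmon estimates after rounding, and they are of amplified cDNA without molecular identifiers, so limits from counts cover counting error only. All columns were used and matched to samples by name.

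Symbols, transcript lengths and GC content came from GENCODE vM21 and promoters from RefSeq (GRCm38.p6). These are another build than the authors used, so coordinates are given for the promoters alone. A symbol was found for 51487 of 78317 identifiers, for all 9 members, and GC content for 90.7% of genes in the test.

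The test was edgeR 4.0.16 under R 4.3.3 (filterByExpr by group, TMM, quasi-likelihood test, Benjamini-Hochberg over all genes tested, all libraries in 1 model of group means), with DESeq2 1.42.0 as an alternative. CPM use TMM-scaled library sizes, the errors of levels are SD over 3 libraries and those of log2 fold changes are standard errors of the model. Depth limits low genes most, since 3 counts are 0.355 CPM in the smallest library and 0.0436 CPM in the largest. The labels do not say more of the replicates than a number, and an exact two-sided permutation test of 3 against 3 cannot give a p below 0.1, so model p-values are given. Libraries of a group differed beyond sampling noise. The function was tested on simulated counts. Other models, filters, scalings and the omission of each library were tried, and the legacy quasi-likelihood and the block in 6 libraries were added after seeing the data.

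The replicate numbers come from the labels, which tie them to no batch or day. The deviations of same-numbered libraries from their group means correlated at 0.29, 0.27 and 0.21 between M0 and M1. Between M2 and SiO2 they correlated at 0.13, 0.51 and 0.42. In no other pair of groups were all 3 correlations above 0.1 (range over 30 pairs -0.70 to 0.60). The block in 6 libraries was fitted for M1 against M0 alone, and not for SiO2 against M2. The members and lists were chosen with earlier results of these data known. Genes of the lists are named if called, at most the 4 largest changes per list in M1 and in M2 against M0 and 4 over the microrod comparisons, with 5 interferon-γ and IL-4 receptor chains named in any case.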

Additional observations from a re-analysis of the deposited data

How the results depend on the processing

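With 3 libraries per group, calls of *Jak2*, *Stat2*, *Tyk2*, *Stat3* and *Stat5a* were lost when single libraries were left out. For *Stat3* and *Stat5a* these losses were in comparisons of microrods with M1. *Jak2* and *Stat2* were the scarcest of the tested members, and the part of depth in the losses was not tested. The number of members called was 4 in M1 against M0, with 2 in a model of the 6 libraries, 2 in that model with a replicate block and 2 to 3 with a library left out. In M1 against M2 it was 2, with 1 under a replicate block (*Stat3*), 0 in a model of 6 libraries and 1 to 2 with a library left out. In CaP against M1 it was 3, with 4 under DESeq2, 2 without a filter and 0 to 3 with a library left out. In SiO2 against M1 it was 4, with 2 at 10 counts or more in every library and 1 to 3 with a library left out. In CaP against M2 it was 1, with 2 under DESeq2, 2 without a filter on low counts, 0 in a model of 6 libraries and 1 with any library left out. In SiO2 against M2 it was 0, with 2 under DESeq2, 1 without a filter and 0 to 1 with a library left out. In M2 against M0 and in CaP against M0 it was 0, with 1 each without a filter. Where fewer libraries entered, fewer samples carried the test, and for the other settings the cause was not tested. The number of members with their highest mean in M1 was 5 under all 3 scalings. No call changed sign in any alternative. In the model of all libraries the replicate block moved no other count of members by over 1.5 times.

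Over all genes, 687 were called in M2 against M0, with 1141 without a filter, 98 in a model of 6 libraries and 316 to 1361 with a library left out. In M1 against M2 2679 were called, with 4407 without a filter, 1377 in 6 libraries and 1764 to 4270 with a library left out. In M1 against M0 2342 were called and 1511 to 2064 with a library left out. In CaP against M0 109 were called, with 419 under DESeq2, 968 without a filter, 59 under the block, 59 with the legacy model, 68 in 9 libraries, 7 in 6 libraries and 30 to 183 with a library left out. In SiO2 against M0 44 were called, with 117, 205, 19, 34, 10, 1 and 8 to 28 in the same order. In CaP against SiO2 3 were called, with 16 under DESeq2, 104 without a filter and 2 at 10 counts or more and in 6 libraries. In CaP against M1 2108 were called, with 3882 without a filter and 1350 to 2161 with a library left out. In SiO2 against M1 1741 were called and 1114 to 1295 with a library left out. In CaP against M2 742 were called, with 488 at 10 counts or more and 252 in 6 libraries, and in SiO2 against M2 608, with 269 in 6 libraries and 374 to 717 with a library left out.

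Differences that were not called turned sign for *Stat5b* in M2 against M0 without a filter (0.0024), *Jak2* in CaP against SiO2 (-0.0096) and *Stat6* in SiO2 against M2 (-0.0530) under a replicate block, and *Stat5b* in SiO2 against M1 (0.0512) and *Jak1* in CaP against M2 (0.0123) in a model of 6 libraries. With a library left out, log2 fold changes ran for *Stat5b* from -0.16 to 0.15 in M1 against M0, -0.13 to 0.17 in M2 against M0, -0.13 to 0.10 in M1 against M2, -0.26 to 0.0419 in CaP against M0, -0.20 to 0.11 in SiO2 against M0, -0.18 to 0.0324 in CaP against SiO2, -0.16 to 0.0745 in SiO2 against M1 and -0.16 to 0.0534 in SiO2 against M2. For *Stat3* they ran from -0.19 to 0.12 in M2 against M0, -0.0603 to 0.17 in SiO2 against M0 and -0.04 to 0.22 in SiO2 against M2. For *Jak2* they ran from -0.0301 to 0.94 in M1 against M2, -0.50 to 0.18 in CaP against M0, -0.58 to 0.13 in SiO2 against M0 and -0.19 to 0.32 in CaP against SiO2. For *Jak1* they ran from -0.0061 to 0.0570 in CaP against SiO2, -0.21 to 0.0878 in CaP against M2 and -0.24 to 0.0719 in SiO2 against M2. For *Stat6* they ran from -0.43 to 0.11 in M1 against M2, -0.10 to 0.39 in SiO2 against M1 and -0.20 to 0.24 in SiO2 against M2, for *Stat2* from -0.0112 to 0.37 in CaP against M0, and for *Tyk2* from -0.14 to 0.21 in SiO2 against M2.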
